A study of Mus musculus with 6 samples.

Results

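The 10 genes described here form the core of the circadian clock: the activators Clock and Arntl, the repressors Per1, Per2, Per3, Cry1 and Cry2, the nuclear receptors Nr1d1 and Nr1d2, and the output factor Dbp. They were taken by gene symbol from a table of 23366 genes, and all 10 were found once and reached the minimum mean of 0.5 FPKM, the level per length of transcript scaled for depth, over the 6 mice, as did 14385 genes in all. The table holds polyadenylated RNA from the cortex of 3 microglia-depleted mice and 3 littermate control mice, with 1 library per mouse. The paper's results call the tissue frontal cortex. The depleted mice, A4, A5 and A6, were CX3CR1-CreERT2+/-iDTR+/- and were taken 10 days after depletion. The control mice, A1, A2 and A3, carried CX3CR1-CreERT2+/- without iDTR. All 6 were on the C57BL/6 background. The paper's methods state that mice of both genotypes were injected with tamoxifen, which switches on Cre driven by the Cx3cr1 promoter. In mice with iDTR, Cre then turns on the receptor for diphtheria toxin in cells that have used that promoter. Microglia were depleted by injecting the toxin, which kills the cells that carry the receptor. The sources used here do not say whether the control mice received the toxin, and they give neither the age of these 6 mice, nor the hour at which the tissue was taken, nor the light cycle.

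CLOCK and BMAL1, the protein made from Arntl, form a dimer that binds E-boxes and switches on the Per, Cry, Nr1d1, Nr1d2 and Dbp genes. PER and CRY proteins then return to the nucleus and silence that dimer. The proteins of Nr1d1 and Nr1d2, REV-ERB alpha and REV-ERB beta, repress Arntl at sites that the ROR receptors share with them, while DBP and its relatives TEF and HLF activate genes at D-boxes, where NFIL3 opposes them. In many tissues Dbp and Nr1d1 RNA swing widely over the day and Arntl runs opposite to them. Per1 also responds within the hour to neuronal activity, cyclic AMP and glucocorticoids, as an immediate early gene does.

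The sequences below show where the letters of these sites stand near the starts of the genes that the results turn on. RefSeq windows from 250 bases before to 50 bases after each annotated start (GRCm38.p6) were searched on both strands for an E-box (CACGTG), a D-box (TTATGTAA), a ROR element (TAGGTCA) and a cyclic AMP response element (TGACGTCA), none of which contains another. An E-box was found in 7.15% of all 32851 windows, a D-box in 0.938%, a ROR element in 2.61% and a cyclic AMP response element in 1.79%. A window was found for 9 of the 10 clock genes, all but Per2. Per1 and Cry1 each had an E-box, Per3 had a pair of D-boxes and Arntl had a ROR element after the second of its annotated starts. The letters of these motifs were not in the windows of Clock, Cry2, Nr1d1, Nr1d2 and Dbp. Capitals mark the motif, and each sequence reads 5′ to 3′ on the strand of its gene. Each of the first 3 is an upstream stretch of a clock gene, and the last lies after the start of Arntl.
Per1, chr11:69098753-69098818, plus strand: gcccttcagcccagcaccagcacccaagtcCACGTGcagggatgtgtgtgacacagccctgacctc
Cry1, chr10:85185079-85185144, minus strand: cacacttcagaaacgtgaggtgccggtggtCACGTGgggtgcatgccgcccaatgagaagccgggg
Per3, chr4:151044796-151044890, minus strand: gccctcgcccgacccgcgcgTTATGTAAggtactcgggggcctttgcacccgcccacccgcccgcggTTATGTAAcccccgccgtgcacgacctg
Arntl, chr7:113207530-113207559, plus strand: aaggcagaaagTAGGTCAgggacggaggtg

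In these cortices none of the 10 clock genes passed the test between depleted and control mice. In limma, with Benjamini-Hochberg adjustment over the 14385 genes and a threshold of 0.1, 0 of the 10 were called, against 4 genes (0.0278%) over the whole table. The paper's DESeq test on counts called many more genes at that threshold. A gene not called here is thus not shown to be unchanged. The lowest adjusted p of the 10 was 0.501, for Cry2. At an unadjusted p under 0.05, 0 of the 10 passed, against 10.5% of all genes tested. The means of 7 were higher and of 3 lower in depleted mice, with a median log2 fold change of 0.13 beside -0.0085 over all genes tested. All fold changes are of depleted over control mice on log2(FPKM + 1).

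One library decided most of these means. Depleted mouse A4 was the highest of the 6 mice for 8 of the 10 clock genes, where it was the highest for 26.8% of all genes tested. It was the lowest for 1 of the 10, Clock, and for 28% of all genes. It stood at least 1.5-fold above each of the other 5 mice for Per1, Cry1 and Nr1d1, against 3.2% of all genes, and none of the other 5 mice stood that far above or below the rest for any of the 10. Without A4 the median log2 fold change of the clock genes was -0.012, and 4 of the 10 were higher in depleted mice. A4 also stood apart in other RNA. The summed FPKM of 4 Y-linked genes, Ddx3y, Eif2s3y, Kdm5d and Uty, was 5.56 in A4 and at most 0.16 in the other mice, and Irf7, an interferon-induced transcription factor, was at 25.81 FPKM in A4, 4.14 in A5 and 3.75 in A6, all above the 0.64 to 1.82 FPKM of the controls. Control mouse A3 had little Xist, the RNA of the inactive X chromosome, at 4.74 FPKM against 30.86 in A4 and 38.14 to 46.66 in the other mice. A4 thus held both Xist and Y-linked RNA. The labels give no sex, the methods call the mice sex-matched, and whether the A4 library holds RNA of more than 1 mouse was not tested. Each clock gene is therefore given with and without A4. Without A3, 0 of the 10 were called, 6 were higher in depleted mice and the median log2 fold change was 0.094. The spacing of low FPKM values placed about 11.2 to 20.5 M fragments behind 5 of the libraries by the best match. For A5, the shallowest, the best match was at 3.58 M and the next at 7.12 M.

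**Figure D1:**
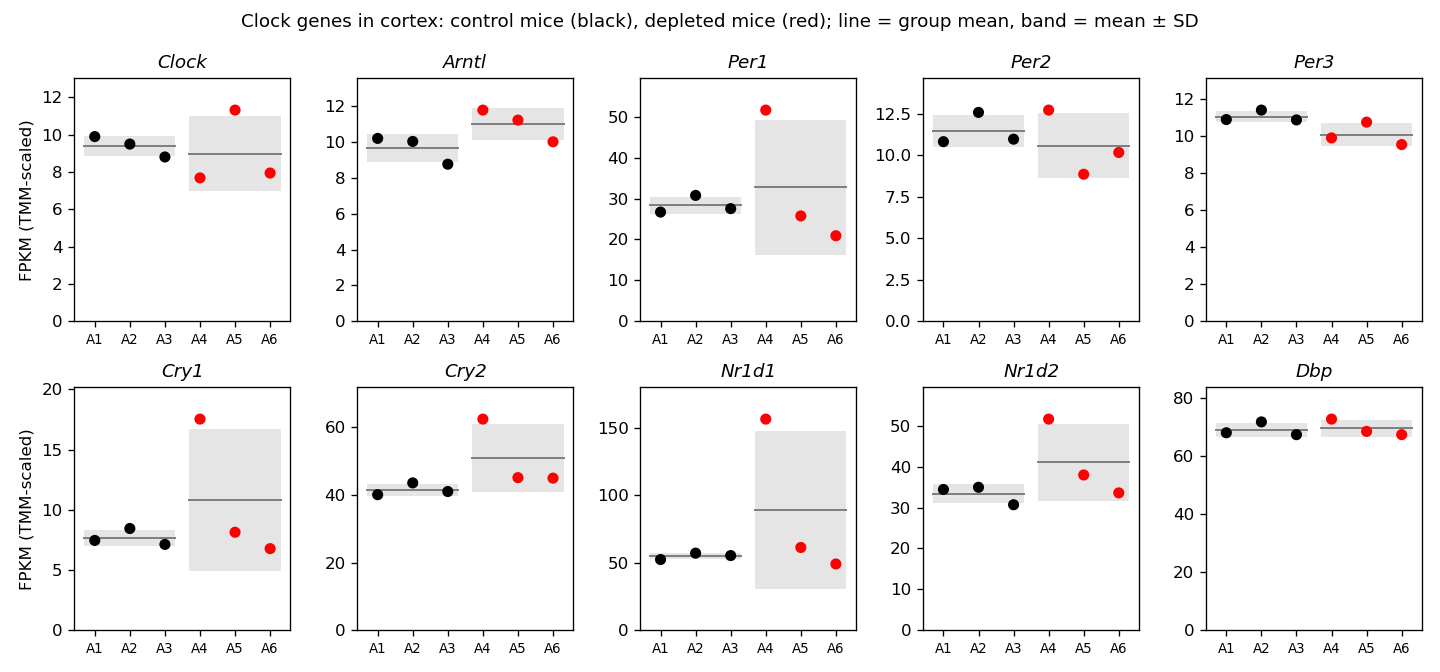
FPKM (TMM-scaled) of the 10 clock genes in each mouse, with control mice A1 to A3 in black and depleted mice A4 to A6 in red, the group mean as a line and mean ± SD as a band. A4 is far above the other 5 mice for Nr1d1, Cry1 and Per1, and close to them for Dbp, Per2, Per3 and Arntl.

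The activators Clock and Arntl, unlike Per1, Cry1 and Nr1d1, had no mouse at least 1.5-fold above all others. Values are given in the order A1, A2, A3 and A4, A5, A6. Clock, the DNA-binding partner of BMAL1, was at 9.89, 9.49 and 8.80 FPKM in the control mice and at 7.68, 11.31 and 7.94 FPKM in the depleted mice. The 3 depleted mice lay on both sides of the controls, with A4 the lowest and A5 the highest of the 6. Its log2 fold change was -0.076 ± 0.14 (SE; adjusted p = 0.879 in limma), 0.015 without A4 and -0.24 without A5. Arntl was at 10.21, 10.04 and 8.77 FPKM in the control mice and at 11.79, 11.23 and 10.02 FPKM in the depleted mice. Its lowest depleted mouse lay just under the second control mouse, and the log2 fold change was 0.17 ± 0.10 (adjusted p = 0.593 in limma), or 0.12 without A4. The 95% interval of that difference ran from -0.069 to 0.41, so it includes both no difference and a moderate one.

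Among the Period genes, which encode the subunits that carry the repressor complex, Per1 alone was far apart in A4. It was at 26.70, 30.77 and 27.54 FPKM in the control mice and at 51.62, 25.76 and 20.92 FPKM in the depleted mice. A4 was 1.68 times the highest of the other mice, while A5 and A6 were below all 3 controls. The log2 fold change was 0.099 ± 0.28 (adjusted p = 0.920 in limma), and -0.27 ± 0.11 without A4 (unadjusted p = 0.0322, adjusted p = 0.341 in limma). The direction of Per1 thus turned with 1 mouse, and it did not pass the threshold in either case.

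Per2, the paralog of Per1, was at 10.81, 12.57 and 10.96 FPKM in the control mice and at 12.71, 8.85 and 10.16 FPKM in the depleted mice. A4 was level with the highest control mouse and A5 and A6 were below the controls, which gave a log2 fold change of -0.12 ± 0.13 (adjusted p = 0.787 in limma) and -0.24 ± 0.11 without A4 (adjusted p = 0.380). Without A5 it was -0.0061, and without A2 -0.052, so the size of this difference also rested on single mice. Per3, another paralog, was at 10.88, 11.39 and 10.86 FPKM in the control mice and at 9.89, 10.74 and 9.53 FPKM in the depleted mice. Its groups did not overlap, as for 17.6% of all genes tested, with a gap of 10.74 to 10.86 FPKM between them. The log2 fold change was -0.12 ± 0.091 (95% interval -0.33 to 0.084, adjusted p = 0.652 in limma) and about as large, at -0.11, without A4.

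The cryptochromes, the subunits that hold CLOCK and BMAL1 inactive, were both highest in A4. Cry1, at the lowest level of the 10 genes in control mice, was at 7.46, 8.45 and 7.13 FPKM in the control mice and at 17.53, 8.14 and 6.78 FPKM in the depleted mice. A4 was 2.07 times the highest of the other mice, which spanned only 6.78 to 8.45 FPKM. The log2 fold change of 0.34 ± 0.28 (adjusted p = 0.691 in limma) became -0.039 ± 0.12 without A4. Cry2 was at 40.03, 43.51 and 40.96 FPKM in the control mice and at 62.34, 45.06 and 44.91 FPKM in the depleted mice. All 3 depleted mice were above all 3 controls, A5 and A6 by a small margin, and this made Cry2 and Per3 the 2 clock genes of which the groups did not overlap. The log2 fold change was 0.27 ± 0.13 (95% interval -0.021 to 0.56, unadjusted p = 0.0652, adjusted p = 0.501 in limma), and 0.11 ± 0.067 without A4 (adjusted p = 0.509).

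The REV-ERB gene Nr1d1 had the widest spread of the 10. It was at 52.37, 57.10 and 55.31 FPKM in the control mice and at 156.29, 61.30 and 49.10 FPKM in the depleted mice. A4 was 2.55 times the highest of the other mice, and A5 and A6 lay on either side of the controls. The log2 fold change was 0.50 ± 0.36 (95% interval -0.32 to 1.31, adjusted p = 0.645 in limma), and -0.00063 ± 0.098 without A4. Nr1d2, which encodes the second REV-ERB, was at 34.41, 34.94 and 30.68 FPKM in the control mice and at 51.60, 37.95 and 33.58 FPKM in the depleted mice. A4 was 1.36 times the highest other mouse and A6 lay within the controls, with a log2 fold change of 0.27 ± 0.15 (adjusted p = 0.548 in limma), or 0.098 ± 0.087 without A4. The exons of Nr1d1 overlap those of Thra, the thyroid hormone receptor gene on the other strand, over 263 of 3077 bases (8.55%, GENCODE M21). The strand setting of the counting is not given in the sources used here, so reads in that overlap cannot be told apart. Thra was at 268.98 FPKM in A4 and 222.77 to 233.57 FPKM in the other mice.

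Dbp, the output factor that activates D-box genes and the most abundant of the 10 RNAs in control mice, hardly varied. It was at 67.97, 71.71 and 67.32 FPKM in the control mice and at 72.68, 68.44 and 67.33 FPKM in the depleted mice. Group means were 69.0 ± 2.37 and 69.5 ± 2.82 FPKM (SD, n = 3 mice each), and A4 was above the others by a factor of only 1.01. The log2 fold change was 0.0097 ± 0.069 (adjusted p = 0.971 in limma), with a 95% interval of -0.15 to 0.17, the narrowest interval of the 10, and -0.023 without A4. Dbp shares 539 of 2993 exon bases (18.0%) with Sphk2 on the other strand, which was at 6.34 to 9.06 FPKM.

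**Figure D2:**
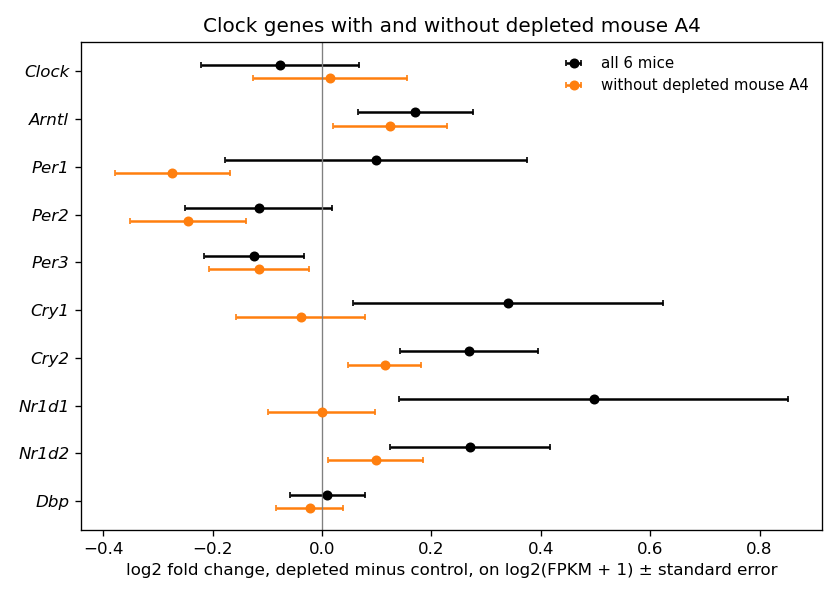
Log2 fold change of depleted over control mice on log2(FPKM + 1), ± standard error, for the 10 clock genes with all 6 mice and without depleted mouse A4. Without A4, Nr1d1 goes from 0.50 to -0.00063, Cry1 from 0.34 to -0.039 and Per1 from 0.099 to -0.27, while Dbp and Per3 hardly move.

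In control mice the levels, which FPKM gives per length of transcript, ran from Dbp (69.0 ± 2.37 FPKM) through Nr1d1 (54.9 ± 2.39), Cry2 (41.5 ± 1.802), Nr1d2 (33.3 ± 2.32), Per1 (28.3 ± 2.15), Per2 (11.4 ± 0.976), Per3 (11.04 ± 0.3004), Arntl (9.67 ± 0.787) and Clock (9.39 ± 0.551) to Cry1 (7.68 ± 0.687; SD, n = 3 mice). The ranges of the 3 mice overlapped between the neighbours Nr1d2 and Per1, Per2 and Per3, and Arntl and Clock, and between no other neighbours in that order. The repressors thus lay both near the top and at the bottom of the order, and both activators were near the bottom. The 3 control mice agreed closely on each gene, with the highest over the lowest mouse between 1.05 and 1.19 and a median of 1.13, beside 1.16 over all genes tested. In the 3 depleted mice the same ratio ran from 1.08 for Dbp to 3.18 for Nr1d1, with a median of 1.45, beside 1.30 over all genes. Among the 5 mice other than A4 it was 1.07 to 1.47.

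Ratios between clock genes within a mouse, which do not depend on the scaling between libraries, also set A4 apart, but not for every pair. Nr1d1 over Dbp was 0.770, 0.796 and 0.822 in the control mice and 2.15 in A4, 0.896 in A5 and 0.729 in A6. A4 was thus the mouse in which Nr1d1 exceeded Dbp. Nr1d1 over Arntl, the repressor over its target, was 13.3 in A4 and 4.90 to 6.31 in the other mice. Per1 over Per2 was 4.06 in A4 and 2.06 to 2.91 in the others, and Cry1 over Cry2 was 0.281 in A4 and 0.151 to 0.194 in the others. Dbp over Arntl, 2 RNAs that run opposite to each other over the day in many tissues, was 6.16 in A4 and 6.09 to 7.68 in the other mice, so that A4 lay within their range. The hour of harvest is not given in the sources used here, and its part in these values was not tested.

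The genes whose values followed Dbp most closely over the 6 mice were Capzb, Nfyb, Dusp6, March4 and Braf, with Pearson r of log2(FPKM + 1) from 0.984 to 0.994. They were taken from 14375 ranked genes, and the 6 points share their libraries and 2 groups. The other clock genes were not part of this ranking.

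Of 26 further genes of the clock pathway, all tested, 0 were called by limma and 3 had an unadjusted p under 0.05, beside 10.5% of all genes. The means of 17 were higher and of 9 lower in depleted mice, with a median log2 fold change of 0.057, and 11 of 26 were higher without A4. Groups did not overlap for 6 of the 26 (17.6% over all genes): Tef, Nampt and Lonrf3 were higher in depleted mice, and Csnk1e, Btrc and Fbxw11 were lower. A4 was at least 1.5-fold above each other mouse for 3 of them, Ciart, Nfil3 and Bhlhe41, against 3.2% of all genes.

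Ciart, which encodes CHRONO, a repressor of CLOCK and BMAL1, was at 14.63, 16.09 and 15.48 FPKM in the control mice and at 48.28, 15.20 and 11.93 FPKM in the depleted mice. A4 was 3.001 times the highest other mouse, and the log2 fold change of 0.41 ± 0.42 (adjusted p = 0.749 in limma) became -0.18 without A4. Nfil3, the D-box repressor, was at 3.80, 5.21 and 4.76 FPKM in the control mice and at 14.36, 4.34 and 4.31 FPKM in the depleted mice. Only A4 lay outside the control range, and the log2 fold change of 0.45 ± 0.37 (adjusted p = 0.691 in limma) became -0.062 without it. Bhlhe41, an E-box repressor also known as Dec2, was at 9.23, 10.17 and 8.89 FPKM in the control mice and at 16.98, 9.18 and 8.40 FPKM in the depleted mice. Its relative Bhlhe40 was also highest in A4, at 81.62 FPKM against 41.01 to 57.17 in the other mice, with a log2 fold change of 0.096 and of -0.20 without A4.

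The windows of these 3 genes are shown because they join Per1, Cry1 and Nr1d1 as the clock-pathway genes furthest apart in A4. Of those 6 genes, Per1, Cry1, Ciart and Bhlhe41 had an E-box in the window, Ciart at 3 places, while Nfil3 had a ROR element and Nr1d1 had none of the motifs searched. A match is a description of the letters and not of a bound site. Capitals mark the E-boxes in the first 2 sequences and, in the third, the ROR element read on the opposite strand.
Ciart, chr3:95882247-95882364, minus strand: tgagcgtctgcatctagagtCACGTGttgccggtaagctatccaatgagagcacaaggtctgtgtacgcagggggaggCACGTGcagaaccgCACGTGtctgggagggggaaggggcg
Bhlhe41, chr6:145865538-145865603, minus strand: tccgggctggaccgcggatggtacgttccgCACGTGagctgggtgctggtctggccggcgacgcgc
Nfil3, chr13:52981040-52981081, minus strand: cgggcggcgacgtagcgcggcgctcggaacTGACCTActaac
An E-box was also found in the windows of Tef, Cipc and Lonrf3, so that of the 28 genes with a window among all 36, 7 held one.

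**Figure D3:**
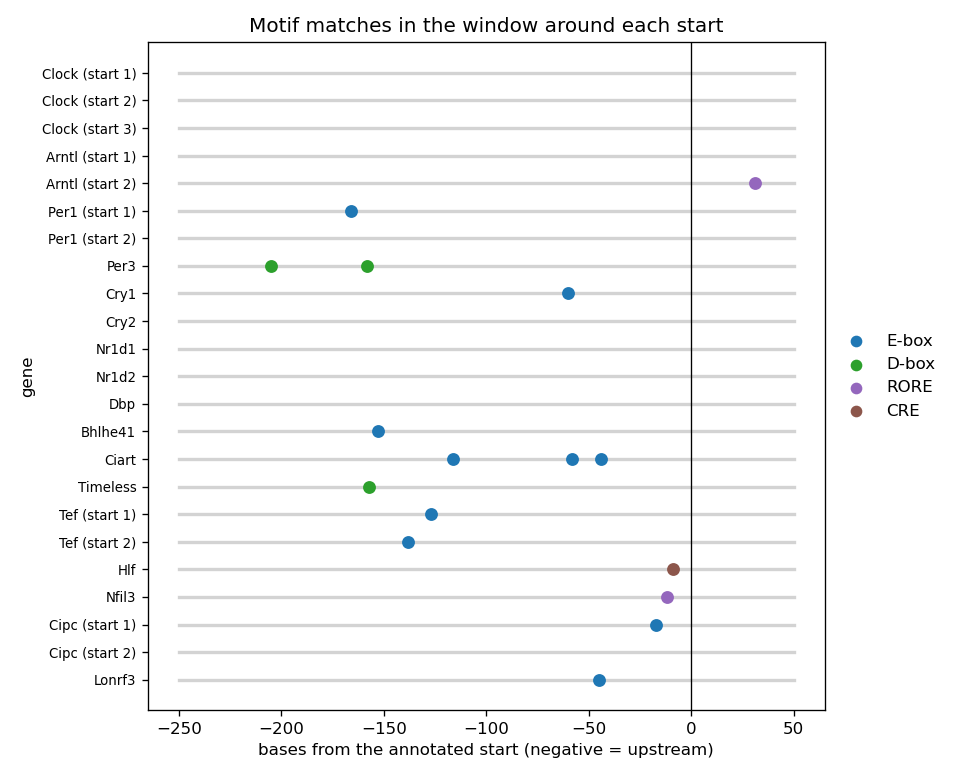
Positions of the 4 motifs in the window of 250 bases before to 50 bases after each annotated start, in bases from the start. Shown are the clock genes with a window, with or without a match, and the further clock-pathway genes with a match. Per1, Cry1, Bhlhe41 and Ciart carry E-boxes upstream of the start, and Per3 carries 2 D-boxes.

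In 3 further genes all 3 depleted mice were above all 3 controls. Tef, a D-box activator like Dbp, was at 117.00, 118.95 and 118.26 FPKM in the control mice and at 135.09, 129.13 and 129.27 FPKM in the depleted mice, and its log2 fold change was 0.15 ± 0.061 (unadjusted p = 0.0382, adjusted p = 0.451 in limma) and 0.13 without A4. The gap between its groups was 118.95 to 129.13 FPKM. Hlf, a further factor of this family, had a log2 fold change of 0.0021 ± 0.10, with A4 at 47.94 FPKM and the others at 38.35 to 45.80. Lonrf3, taken as a rhythmic output gene, was at 4.84, 4.31 and 5.15 FPKM in the control mice and at 7.40, 6.29 and 6.29 FPKM in the depleted mice. Its log2 fold change of 0.41 ± 0.12 (unadjusted p = 0.00739, adjusted p = 0.378 in limma) was 0.34 without A4. Nampt, an E-box target that makes a precursor of NAD, was at 14.02, 14.57 and 12.69 FPKM and at 20.80, 15.71 and 15.73 FPKM, with a log2 fold change of 0.31 ± 0.12 (unadjusted p = 0.0350, adjusted p = 0.451 in limma) and 0.18 without A4. These 3 were the genes of the 26 with an unadjusted p under 0.05, and none passed the adjusted threshold.

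Of the remaining roles, the activators Npas2 and Arntl2, relatives of Clock and Arntl, had log2 fold changes of 0.09 and -0.11, and the ROR receptors Rora and Rorb, which oppose the REV-ERBs, had 0.048 and -0.12. Among the kinases and ubiquitin ligases that set the stability of PER and CRY, the values ran from -0.18 for Btrc to 0.12 for Csnk2a1. Cipc, which encodes an inhibitor of CLOCK, had 0.049. The adjusted p of these 7 named genes was between 0.517 and 0.959 in limma.

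**Figure D4:**
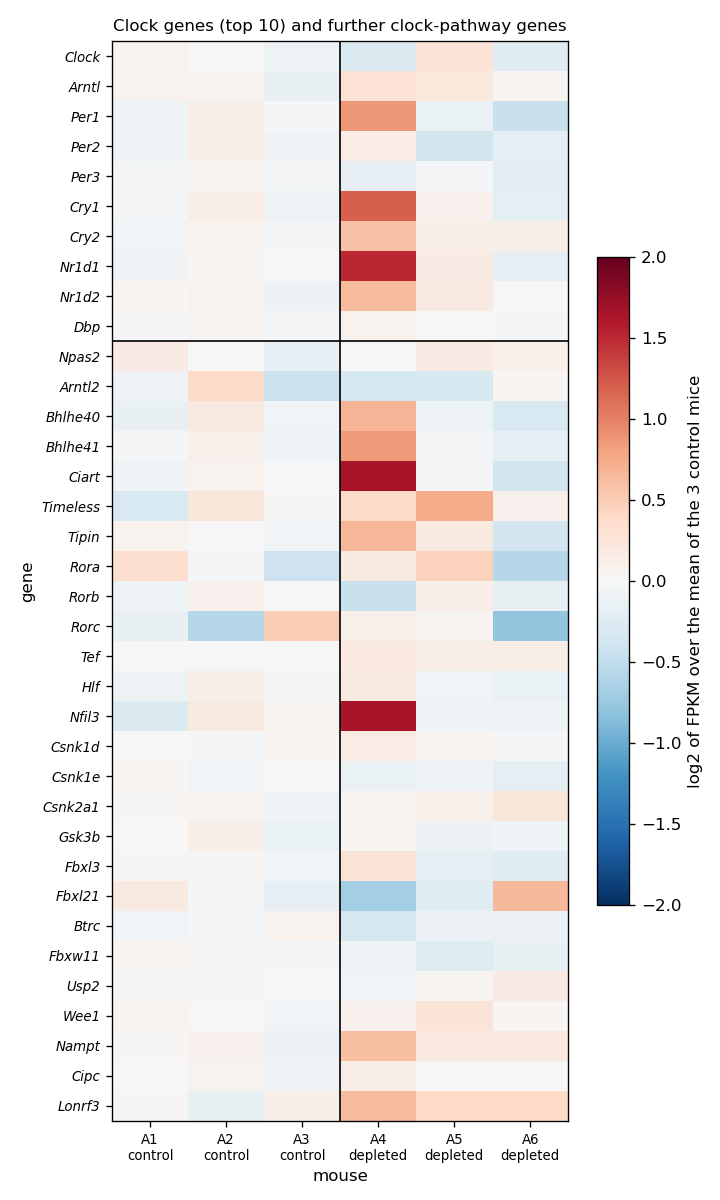
Log2 of FPKM over the mean of the 3 control mice, for the 10 clock genes (above the line) and the 26 further clock-pathway genes, in each of the 6 mice. The column of A4 holds the strongest colours, at Nr1d1, Cry1 and Per1 above and at Ciart and Nfil3 below, and the other 5 columns are pale at these genes.

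Other groups of genes moved with the clock genes in A4. Immediate early genes, which like Per1 respond to neuronal activity, were highest in A4 for 12 of 14, and at least 1.5-fold above each other mouse for 6. Over all genes tested these shares were 26.8% and 3.2%. Their summed FPKM was 614.2 in A4 and 187.9 to 292.7 in the other 5 mice. Egr1 was at 65.84, 86.97 and 68.79 FPKM in the control mice and at 302.62, 73.50 and 57.32 FPKM in the depleted mice. Egr2, with a log2 fold change of 0.82, was at 14.89 FPKM in A4 and 1.16 to 4.61 in the others. Nr4a3, at -0.34 (unadjusted p = 0.0496, adjusted p = 0.475 in limma), was at 3.71 FPKM in A4. It alone of the 14 had groups that did not overlap (17.6% over all genes), at 2.81 to 3.71 FPKM in depleted and 3.74 to 5.22 in control mice. None of the 14 was called by limma (median log2 fold change 0.090).

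Glucocorticoid-responsive genes were highest in A4 for 9 of 11 (26.8% over all genes) and at least 1.5-fold above the rest for 3 (3.2% over all genes). None was called, and the median log2 fold change was 0.11. Cdkn1a, the cell cycle inhibitor p21, was at 44.57 FPKM in A4 and 10.94 to 14.17 in the others, and Fkbp5, a chaperone of the glucocorticoid receptor, at 32.96 FPKM in A4 and 15.61 to 18.74 in the others. Tsc22d3, a common marker of glucocorticoid action, was instead lowest in A4, at 61.23 FPKM against 62.92 to 75.54.

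Among 8 temperature-linked genes, again with 0 called (median log2 fold change 0.048), the cold-induced Cirbp and Rbm3 were highest in A4, at 87.83 FPKM against 41.55 to 51.24 and at 162.06 FPKM against 58.22 to 82.46. Of the other 6, 5 were lowest in A4, where 28% of all genes tested were lowest in that mouse. The heat shock genes Hsph1 and Hspa1a were lowest in A4, Hsph1 at 64.97 FPKM against 98.52 to 119.08 and Hspa1a at 3.57 FPKM against 4.51 to 6.23. Hsp90aa1, a chaperone gene, went the other way, at 580.66 FPKM in A4, 598.04 in A5 and 611.69 in A6 against 509.67 to 521.62 in the controls (log2 fold change 0.21, unadjusted p = 0.00754, adjusted p = 0.378 in limma). The part of neuronal activity, glucocorticoids and temperature in the clock genes of A4 was not tested.

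**Figure D5:**
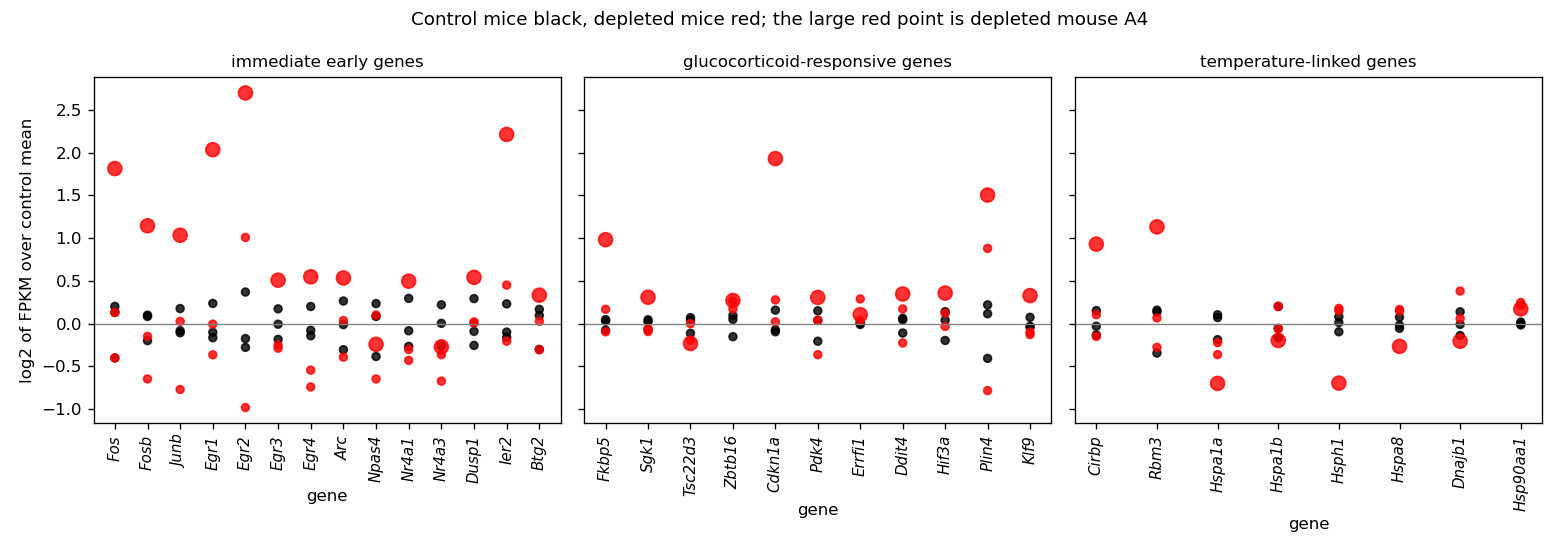
Log2 of FPKM over the control mean for immediate early, glucocorticoid-responsive and temperature-linked genes, with control mice in black, depleted mice in red and A4 as the large red point. A4 lies above the other mice for Egr1, Egr2, Cdkn1a, Cirbp and Rbm3, and below them for Hsph1 and Hspa1a.

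Markers of neurons and of the cortex were present in all 6 libraries, and several marker lists summed lowest in A4. In bulk tissue fewer cells of a type and less RNA per cell cannot be told apart. Neuron markers, led by Snap25, summed to 1925 FPKM in A4 and to 1892 to 2213 in the other mice, and astrocyte markers, led by Slc1a3, to 241.7 in A4 and 242.1 to 287.9 in the others. The 3 markers of layer IV, led by Rorb, summed to 6.45 in A4 and 8.99 to 12.6 in the others, and the groups did not overlap, at 6.45 to 10.7 in depleted and 11.4 to 12.6 in control mice. Of these, Rspo1 and Scnn1a had log2 fold changes of -0.59 and -0.51 (unadjusted p = 0.0162 and 0.0146, adjusted p = 0.396 and 0.393 in limma). Among oligodendrocyte genes, Cnp was at 122.5 FPKM in A4, 130.2 in A5 and 130.8 in A6 against 155.2 to 164.2 in the controls (log2 fold change -0.31, unadjusted p = 0.00124, adjusted p = 0.307 in limma). Mag was at 45.94 FPKM in A4 and at 68.54 and 69.01 in A5 and A6, against 79.12 to 87.77 in the controls. Microglia were the depleted cells, and the paper describes them as repopulated 10 days after depletion. Their markers, led by Csf1r, summed to 60.2 FPKM in A4, and over the depleted mice to 41.2 to 60.2 against 45.01 to 53.1 in the controls. For 2 members of this list the groups did not overlap, in opposite directions. Aif1, a general marker of microglia, had a log2 fold change of 0.74 (unadjusted p = 0.00683, adjusted p = 0.378 in limma). P2ry12, a homeostatic microglia gene, had -0.35 (unadjusted p = 0.0141, adjusted p = 0.390 in limma). The groups overlapped for Tmem119, also a homeostatic gene, and for Cx3cr1 and Csf1r, with log2 fold changes of 0.16, 0.025 and -0.081.

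Among markers of neighbouring tissue, those of the choroid plexus also summed to values that did not overlap between the groups, with A5 and A6 on the same side as A4. Most of that sum was Ttr, at 40.92 to 64.30 FPKM in depleted and 160.05 to 313.68 FPKM in control mice. All 5 choroid plexus markers were lower on average in depleted mice, but the groups overlapped for Folr1, Clic6 and Kl. These choroid plexus markers, led by Ttr, summed to 44.6 to 69.0 FPKM in depleted and 166.5 to 322.8 in control mice, and hypothalamus markers, led by Pmch, to 88.4 to 115.1 and 104.6 to 163.3. Thalamus markers, led by Prkcd, summed to 26.6 to 31.7 and 29.98 to 39.6, striatum markers, led by Ppp1r1b, to 195.2 to 216.2 and 183.5 to 212.4, and general cortex markers, led by Neurod6, to 57.8 to 69.6 and 68.0 to 81.9. Of these 5 lists, those of hypothalamus, thalamus and cortex summed lowest in A4, at 88.4, 26.6 and 57.8 FPKM. The striatum sum was carried by Ppp1r1b, at 159.13 FPKM in A4 and 120.43 to 146.08 in the other mice. The other 4 striatum markers were each lowest in A4, which was lowest for 28% of all genes tested. Among them, Drd2 was at 4.88 FPKM in A4 against 10.08 to 14.19, and Adora2a at 6.70 against 12.33 to 14.41. Of the 5 hypothalamus markers tested, 3 were lower in depleted mice and 2 were higher. The lowest was Hcrt, with a log2 fold change of -1.06 (unadjusted p = 0.000669, adjusted p = 0.293 in limma). Pmch had -0.45 (unadjusted p = 0.0370, adjusted p = 0.451 in limma) and Avp -0.27. Of the 5, the groups did not overlap for Hcrt alone (17.6% over all genes), at 8.12 to 13.34 FPKM in depleted and 18.59 to 28.36 in control mice. The higher ones were Nkx2-1, with a log2 fold change of 0.88 (unadjusted p = 0.0109, adjusted p = 0.378 in limma), and Vip, with 0.16. No marker of these lists was called by limma, and none was at 0 in any mouse among those tested. Their part in the clock gene values was not tested.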

How the data were processed

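Cortical RNA of 3 depleted and 3 control mice was analysed, grouped by the labels. The authors prepared TruSeq poly(A) libraries, sequenced paired-end reads on a NextSeq, aligned them with TopHat and quantified known transcripts with RSEM. The deposited values are FPKM per gene, scaled between libraries with TMM by the authors. The submitters' processing notes name genome build mm9, and tool versions are not given in the sources used here. The authors' DESeq test on raw counts was not repeated, as counts were not used here.

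FPKM values were taken to log2(FPKM + 1), and genes reaching a mean of 0.5 FPKM over the 6 mice were tested with limma 3.58.1 in R 4.3.3 (lmFit, eBayes with trend, two-sided), with Benjamini-Hochberg adjustment over 14385 genes and 0.1 as the threshold. This scale understates the fold changes of low genes. The test was checked on simulated data.

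The clock genes and all lists were chosen with earlier results of these data known. Named by rule were the 10 clock genes, in each clock-pathway role and each list beside it the genes of largest and smallest log2 fold change, the 5 genes most like Dbp, and the most abundant gene of each marker list, of which 1 list is not reported here as a sum. Bhlhe41, Tef, Nampt, Csnk1e, Fbxw11, Egr1, Fkbp5, Cirbp, Hsph1, Hsp90aa1, Aif1, P2ry12, Tmem119, Cx3cr1, Rspo1, Scnn1a, Cnp, Mag, Folr1, Clic6, Kl, Hcrt, Avp, Nkx2-1, Vip, Drd2, Adora2a, Irf7, Xist, the Y-linked genes, Thra, Sphk2 and the ratios were chosen after their values were seen. Ciart, Cipc and Drd1 were matched through the older symbols Gm129, 2310044G17Rik and Drd1a. Exon overlaps came from GENCODE M21 (GRCm38), promoter windows from RefSeq (GRCm38.p6). Windows of 75 bases shared between annotated transcripts showed none between the 10 clock genes, and 2.30% of those of Nr1d2 in another annotated gene. The settings varied were the pseudocount (0.1), the filter (none, or a mean of 1 FPKM), the scaling (quantile, median-of-ratios or TPM), the variance model (array weights, or eBayes without trend), the threshold (0.05) and the mice, each left out in turn. Other steps ran in Python 3.11.15 with pandas 2.3.3, numpy 2.4.6, matplotlib 3.10.9 and scipy 1.17.1.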

Additional observations from a re-analysis of the deposited data

How the results depend on the processing

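Under every alternative, 0 of the 10 clock genes and 0 of the 26 further genes were called, and the lowest adjusted p of the 10 in limma was between 0.324 and 0.898. The number called over the whole table was 4, but 3 without a filter on low values, 2 with eBayes without trend, 20 with array weights, and 2 to 29 when 1 mouse was left out. Rescaling to TPM turned Hlf to -0.00069, and array weights turned Per1 to -0.060, Dbp to -0.00019, Hlf to -0.021 and Bhlhe40 to -0.016. When 1 mouse was left out, log2 fold changes ran from -0.24 to 0.015 for Clock, -0.27 to 0.36 for Per1, -0.039 to 0.59 for Cry1, -0.00063 to 0.82 for Nr1d1, -0.023 to 0.037 for Dbp, -0.062 to 0.70 for Nfil3, -0.089 to 0.069 for Hlf, -0.18 to 0.79 for Ciart, -0.20 to 0.29 for Bhlhe40, -0.091 to 0.38 for Bhlhe41, -0.12 to 0.27 for Rora and -0.23 to 0.020 for Arntl2. For the other clock genes, which kept their direction, they ran from 0.11 to 0.23 for Arntl, -0.24 to -0.0061 for Per2, -0.17 to -0.091 for Per3, 0.11 to 0.35 for Cry2 and 0.098 to 0.40 for Nr1d2. For Per1, Per2, Cry1, Cry2, Nr1d1, Nr1d2 and Dbp the low end is the value without A4. The number of clock genes with an unadjusted p under 0.05 was 0 with all mice, 1 without A4 (Per1), 1 without A5 (Cry2) and 3 without A6 (Cry2, Nr1d1 and Nr1d2). With 3 mice a group, the 95% intervals of the clock genes spanned up to -0.32 to 1.31 (Nr1d1). No paired analysis was possible because the groups share no replicate number. The controls were littermates, but which mice shared a litter, and any batch, date or hour of harvest, is not given in the sources used here.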
